A study of Glycine max with 5 samples.

Results

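Genes of transcription and chromatin, apart from zinc finger proteins and the transcription factors already named in soybean, were followed in mature soybean pollen. The probe sets were those that the study placed under the heading Transcription in its list of transcripts higher in pollen, without any annotated as a zinc finger protein and without those whose soybean gene symbol marks a MYB, WRKY, NAC, bZIP, heat shock, ERF, DREB or MADS-type factor. Of 154 probe sets under that heading, 44 were left out as zinc finger proteins and 16 by their symbol. The remaining 94, of 37593 soybean probe sets on the array, are described here. Since the study chose its list by higher signal in pollen on these same arrays, the difference between pollen and sporophytic tissues is given for them as a description and carries no test.

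The arrays compared 3 biological replicates of mature pollen grains with 2 biological replicates of sporophytic tissues, all from soybean (Glycine max) cv. Bragg. Plants for pollen were kept at 30 °C with 16 h of light and 8 h of dark, and flowering was induced with 12 h of light. Grains were set free by friction between detached anthers, and remnants of the anther were discarded. The sporophytic RNA came from seedlings 10 days old, which the methods describe as stem, root and leaf and the results text as leaf and stem. No genotype or chemical treatment separated the groups, so growth stage, growing conditions and tissue cannot be told apart. The pollen RNA came from whole grains, and its vegetative and generative cells cannot be told apart.

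Mature soybean pollen is shed as a large vegetative cell that encloses a smaller generative cell. Transcription by RNA polymerase II starts when general factors such as TFIIA help the TATA-binding protein to sit on the promoter, and sequence-specific factors then recruit or restrain this machinery. Chromatin regulators act on the same genes through the histones. Polycomb and trithorax proteins set opposing methylation marks, acetyltransferases loosen nucleosomes, and proteins with bromodomains, PHD fingers, BAH or PWWP domains can bind histones. In Arabidopsis the polycomb protein FIE is known for its part in seed development and in the female gametophyte.

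The labels were checked with 16 probe sets annotated as pectate lyase, pectinesterase, RALF peptide or Ole e 1 relative, types of protein known from pollen, and with 12 of leaf light harvesting or the small subunit of Rubisco. All 16 of the pollen list reached a signal of 100 on every pollen array and none did so on both sporophytic arrays, and their summed signal was 467753 to 482526 on pollen arrays and 94 on each sporophytic array. Of the leaf list, 2 reached that signal on all pollen arrays and 10 on both sporophytic arrays, with a summed signal of 1136 to 1438 on pollen arrays and 45537 to 138128 on sporophytic arrays. The pollen probe sets and part of the leaf ones came from lists that the study made on these arrays, so the check is not independent. Lists for root and anther wall found no probe set by name. Over all probe sets, the median log2 signal was 4.11, 4.24 and 4.23 in pollen and 5.25 and 5.43 in sporophytic tissues. A lower share of the array carried signal in pollen, as 18.4% to 19.9% of all probe sets reached 100 there, against 33.7% to 35.9% in sporophytic tissues.

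All 94 probe sets were higher in pollen at an adjusted p under 0.05 in limma's test, a call made for 18.9% of all probe sets. The way they were chosen fixes this count, and nothing is read from it. In such bulk RNA, fewer cells of a type and less RNA per cell cannot be told apart. Values below are the deposited log2 signals, for which the study names Robust Multiarray Averaging (RMA), so that 1 unit is a 2-fold step. Differences are pollen minus sporophytic tissues. For HSFB2A and ZFWD2, described below, the study printed smaller log2 ratios than the differences given here. It also counted far fewer transcripts as higher in pollen than were called here. What sets these values apart from the printed ones was not tested. The median log2 difference was 3.98 over the 94 and -0.22 over all probe sets, and single probe sets spanned 0.44 to 8.92. A difference of 2-fold or more was reached by 91 of them, and by 5501 of all 37593 probe sets. For 16-fold or more it was 46 (3.19% of all probe sets), and for 64-fold or more 15 (1.19%). Every pollen array was above both sporophytic arrays for each of the 94, as for 36.4% of all probe sets.

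Most of these transcripts were above a signal of 100 in pollen, a minimum that the study set for its pollen-specific genes and that is 6.64 on the log2 scale. All pollen arrays reached it for 87 of the 94, against 17.4% of all probe sets. Of the 87, 51 stayed below it on both sporophytic arrays, 32 reached it on both, and 4 reached it on 1. The pattern of the 51 was met by 4.29% of all probe sets. The other 7 stayed below 100 on every array, as did 54.8% of all probe sets. They were the mTERF protein, TKI1, L1L, the gt-2-related protein, a nucleic acid binding protein, a transcriptional activator and a probe set with no annotation. On the arrays, the median over the 94 was 10.11, 10.12 and 10.18 in pollen and 5.73 and 6.06 in sporophytic tissues.

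The 94 probe sets were sorted by their annotation into 6 groups. Chromatin proteins held 19, general transcription machinery 13, DNA-binding families 33, transcription or DNA-binding proteins of no named family 9, other annotations 14, and 6 had no annotation. The 94 carried 62 Arabidopsis loci as their matching gene, and 10 had none. Several probe sets shared a locus in 16 cases, which took 38 of the probe sets, so the probe sets are not independent genes. Of all 94, 16 end in a suffix that marks probes shared by related transcripts or genes.

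**Figure D1:**
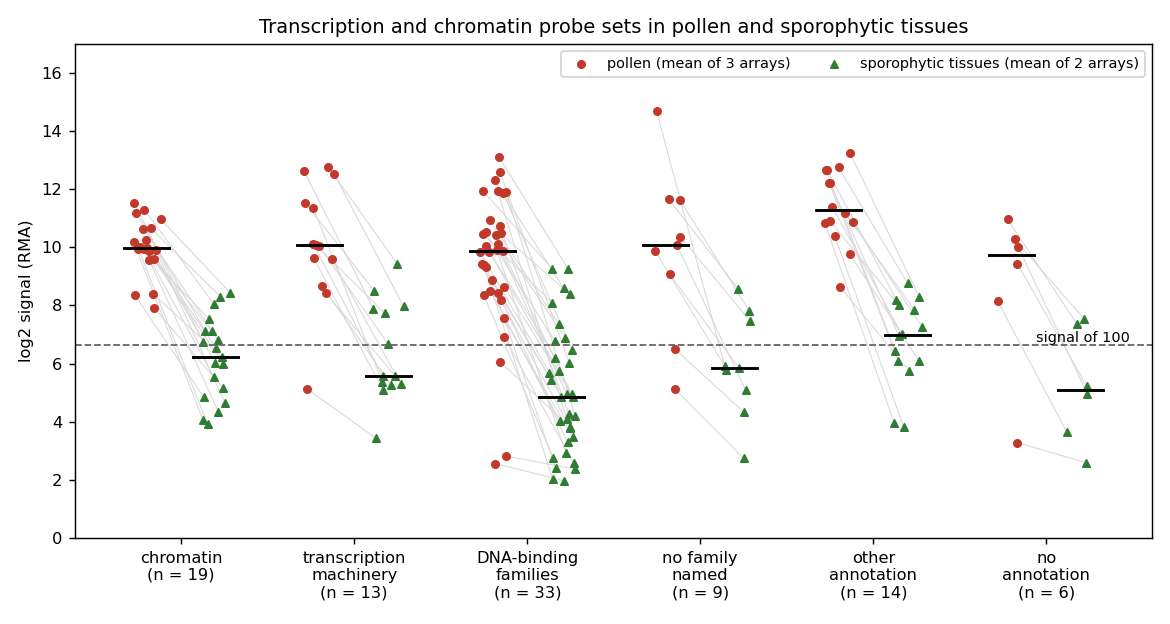
Mean log2 signal (RMA, vertical axis) of each of the 94 probe sets in pollen (circles, mean of 3 arrays) and in sporophytic tissues (triangles, mean of 2 arrays), by annotation group. Grey lines join the 2 means of a probe set, black bars are group medians and the dashed line is a signal of 100. Among chromatin proteins the pollen means lay between 7.92 and 11.54 and the sporophytic means between 3.91 and 8.44.

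The 19 chromatin probe sets had a median log2 difference of 3.53, with a range of 2.19 to 6.11. All 19 reached a signal of 100 on every pollen array. In sporophytic tissues 10 stayed below it on both arrays, 7 reached it on both and 2 reached it on 1.

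Histone methylation was represented by both classes. The polycomb class appeared as FIE (GmaAffx.67782.1.S1_at, matching At3g20740), the WD-repeat subunit of the complex that methylates histone H3 on genes to be silenced. FIE had 9.76, 9.95 and 10.16 in pollen and 3.57 and 4.26 in sporophytic tissues, a difference of 6.04 or 65.8-fold. Its pollen arrays were all above 100 and both sporophytic arrays well below. Of the trithorax-related class, ATXR5 (GmaAffx.88088.1.A1_at, matching At5g09790), which in Arabidopsis places a single methyl group on histone H3 in silent heterochromatin, had 10.23, 10.33 and 9.97 in pollen and 3.77 and 4.37 in sporophytic tissues. The difference of ATXR5 was 6.11, or 68.9-fold, and the groups lay far apart.

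Both remaining SET domain proteins are of the trithorax type, which methylates histone H3 at active genes. SDG29 (Gma.11891.1.S1_at) had 11.71, 11.45 and 11.45 in pollen and 6.58 and 6.95 in sporophytic tissues, a difference of 4.78. One of its sporophytic arrays reached a signal of 100 and the other did not. TX4 (GmaAffx.77227.1.S1_at) had 10.07, 10.39 and 10.36 in pollen and 5.63 and 6.44 in sporophytic tissues, a difference of 4.24. ULT1, a SAND domain protein that in Arabidopsis works with trithorax proteins in the floral meristem, had 11.10, 11.39 and 11.40 in pollen and 7.88 and 8.23 in sporophytic tissues. Its difference was 3.24, and unlike FIE it was above 100 on all 5 arrays.

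Histone acetylation and its readers were also listed. HAC1, an acetyltransferase of the p300/CBP type, was covered by 2 probe sets. The first (Gma.11032.1.S1_at) had 9.39, 9.53 and 9.85 in pollen and 5.85 and 6.15 in sporophytic tissues, a difference of 3.59. The second (GmaAffx.92632.1.S1_at) had 8.49, 8.46 and 8.29 in pollen and 6.0 and 6.43 in sporophytic tissues, a difference of 2.19. Neither reached a signal of 100 on a sporophytic array. A bromodomain protein, of a type that binds acetylated histones, had 10.25, 9.82 and 9.64 in pollen and 4.67 and 4.59 in sporophytic tissues, a difference of 5.27. Paired amphipathic helix domains occur in SIN3 proteins, the scaffold of histone deacetylase complexes, and the protein annotated with them differed by 3.07 and 2.47 for probe sets that are not specific to 1 transcript. Both were above 100 on all arrays.

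Among chromatin remodellers of the SNF2 type, which move nucleosomes at the cost of ATP, CHR19 had 9.74, 10.04 and 10.10 in pollen and 4.97 and 6.09 in sporophytic tissues. CHR19 differed by 4.43, and its sporophytic arrays were at least 2-fold apart. EDA16, an Arabidopsis SNF2 gene named for an arrest of the embryo sac, had 10.54, 10.67 and 10.67 in pollen and 6.74 and 7.53 in sporophytic tissues, a difference of 3.50. The ARID/ELM2 protein, which joins a DNA-binding and a protein-binding domain, had 9.08, 9.98 and 9.66 in pollen and 4.16 and 4.53 in sporophytic tissues. Its range of 0.90 between pollen arrays was the widest of the 94, beside a difference of 5.23.

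The other histone readers had differences of 2.35 to 4.06. The PWWP domain protein (Gma.7145.1.S1_at) had 10.96, 10.96 and 10.98 in pollen and 7.82 and 9.07 in sporophytic tissues, a difference of 2.53 with the sporophytic arrays 1.25 apart. BAH domain proteins differed by 3.53 and 2.35, and the MRG family protein, related to the chromodomain protein MRG15 of animals, by 3.45. PHD finger proteins differed by 4.06 and 2.76. Of these 5, only the BAH domain protein with 3.53 and the PHD finger protein with 2.76 stayed below 100 on both sporophytic arrays.

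**Figure D2:**
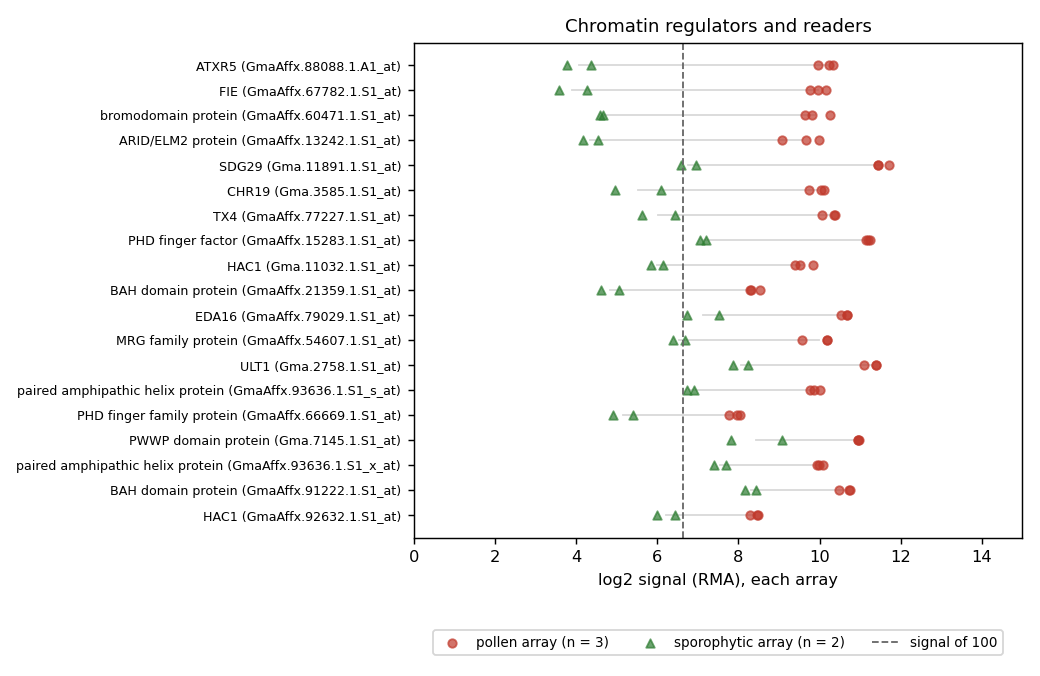
Log2 signal (RMA, horizontal axis) of the 19 chromatin probe sets on each of 3 pollen arrays (circles) and 2 sporophytic arrays (triangles), in order of the difference between the group means. Grey lines join the group means and the dashed line is a signal of 100. ATXR5 and FIE, at the top, differed by 6.11 and 6.04. In each row every pollen array was above both sporophytic arrays, as for 36.4% of all probe sets. The rows were chosen as higher in pollen, so nothing is read from this.

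General transcription machinery was represented by 13 probe sets, with a median log2 difference of 3.41 and a range of 1.70 to 6.01. Of these, 12 reached a signal of 100 on every pollen array, 6 of them on no sporophytic array and 6 on both. TFIIA took 7 of the 13. Its large subunit is cut into the alpha and beta chains, and its small subunit is the gamma chain.

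The TFIIA large subunit was measured by 4 probe sets from 2 clusters of transcripts. Those of the first cluster (matching At1g07470) had 12.63, 12.63 and 12.58 in pollen and 7.74 and 8.04 in sporophytic tissues for the one, and 12.47, 12.56 and 12.53 in pollen and 7.91 and 8.02 in sporophytic tissues for the other, with differences of 4.73 and 4.55. Those of the second cluster (matching At1g07480) had 9.85, 9.34 and 9.66 in pollen and 5.4 and 4.75 in sporophytic tissues, a difference of 4.54, and 9.94, 9.29 and 9.53 in pollen and 5.24 and 5.33 in sporophytic tissues, a difference of 4.30. The 4 differences thus lay within 0.43 of each other, although the first cluster was above 100 on all sporophytic arrays and the second on none. All but GmaAffx.88509.3.S1_at end in a suffix for shared probes, so the 4 are not independent measures. The gamma subunit had 10.02, 10.10 and 10.21 in pollen and 5.41 and 5.70 in sporophytic tissues for the probe set with no shared-probe suffix (GmaAffx.34274.1.S1_at), a difference of 4.55. The other gamma probe sets, with shared probes, differed by 3.35 and 3.04 and were above 100 on all arrays.

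Probe sets annotated as related to transcription elongation made up much of the rest, and the role of their proteins was not tested. A transcription elongation factor-related protein (Gma.11163.1.S1_at, matching At3g10820) had 11.02, 11.51 and 11.56 in pollen and 5.51 and 5.2 in sporophytic tissues, a difference of 6.01 or 64.6-fold. Probe sets matching another elongation-related locus differed by 3.41 and 3.37. A protein with the GreA/GreB region, named for bacterial factors that rescue a stalled polymerase, had 9.91, 10.15 and 10.23 in pollen and 7.83 and 7.63 in sporophytic tissues, a difference of 2.37. SOH1, known in yeast as a subunit of the Mediator complex that bridges activators and the polymerase, had 8.28, 8.42 and 8.55 in pollen and 5.21 and 5.93 in sporophytic tissues, a difference of 2.85. An mTERF protein, of a family that acts on the genomes of mitochondria and chloroplasts, was below 100 on all arrays. Its log2 signal was 4.78, 5.17 and 5.46 in pollen and 3.45 and 3.41 in sporophytic tissues.

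**Figure D3:**
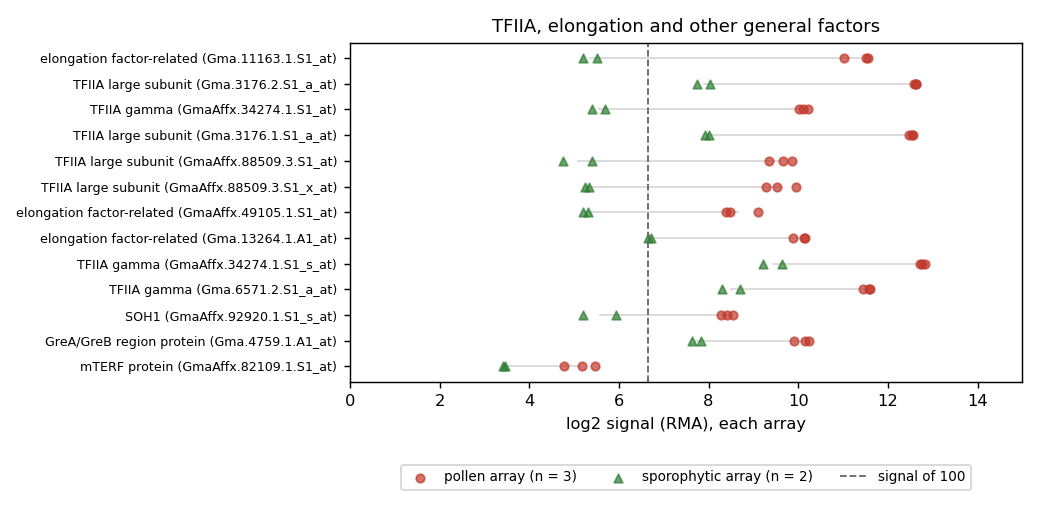
Log2 signal (RMA, horizontal axis) of the 13 probe sets of general transcription machinery on each of 3 pollen arrays (circles) and 2 sporophytic arrays (triangles), in order of the difference between the group means. The dashed line is a signal of 100. The 7 TFIIA probe sets differed by 3.04 to 4.73, and the mTERF protein stayed below the line on all 5 arrays.

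The 33 probe sets annotated to DNA-binding families had a median log2 difference of 4.10 and a range of 0.44 to 7.86. A signal of 100 was reached by 30 of them on every pollen array, and 22 of the 30 stayed below it on both sporophytic arrays. Factors of WRKY, NAC, MYB, ERF and heat stress type appear here where the study's annotation gave the family and the soybean gene symbol did not.

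Heat stress factor HSFB2A, of the class that lacks the activation motif of class A factors, was measured by 2 probe sets of 1 cluster. One had 12.19, 11.86 and 11.80 in pollen and 5.19 and 2.98 in sporophytic tissues, a difference of 7.86. The other had 11.03, 10.53 and 10.63 in pollen and 4.95 and 3.58 in sporophytic tissues, a difference of 6.47. In both, sporophytic replicate 1 was the higher of its pair by more than 2-fold, and pollen was far above either. Without sporophytic replicate 1 or 2, the difference was 8.97 or 6.76 for the first and 7.15 or 5.79 for the second.

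Factors named for G-box, the light- and stress-responsive promoter element, and for MYB and NAC domains followed. The G-box binding factor had 11.90, 11.95 and 11.89 in pollen and 3.35 and 5.0 in sporophytic tissues, a difference of 7.74, which was 6.91 without sporophytic replicate 1 and 8.56 without replicate 2. GHMYB10, named after a cotton MYB factor, had 9.01, 9.57 and 9.61 in pollen and 1.98 and 2.06 in sporophytic tissues, a difference of 7.37. MYB3, which in Arabidopsis represses phenylpropanoid genes, had 7.92, 8.68 and 8.45 in pollen and 2.70 and 2.81 in sporophytic tissues, a difference of 5.59. All of these stayed far below 100 on the sporophytic arrays. ANAC090 had 10.12, 9.73 and 9.91 in pollen and 3.48 and 2.37 in sporophytic tissues, a difference of 7.0. Differences of 4.40 and 3.78 were found for ANAC073 and a NAM-like protein, both with no sporophytic array at 100.

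Growth and hormone regulators came next. GRF3, a growth-regulating factor that in Arabidopsis promotes cell proliferation in leaves, had 12.46, 12.63 and 12.66 in pollen and 5.81 and 6.21 in sporophytic tissues, a difference of 6.58 or 95.4-fold. A protein that the study annotated as similar to NPH4, an auxin response factor, differed by 6.91 for one probe set and by 5.40 for another. This annotation may be out of date, and the role of the protein is uncertain. The first of these (GmaAffx.66026.1.S1_at) had 9.50, 9.24 and 9.25 in pollen and 2.69 and 2.15 in sporophytic tissues. ERF3, a repressor of the ethylene response family, had 3 probe sets with differences of 4.14, 4.07 and 3.74. ILR3, a basic helix-loop-helix factor of iron homeostasis in Arabidopsis, differed by 2.69 and was above 100 on all arrays. A further helix-loop-helix protein had 3 probe sets with differences of 4.93, 4.03 and 3.57.

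WRKY2, which in Arabidopsis pollen takes part in the development of the vegetative cell, had 3 probe sets. The first (GmaAffx.29248.2.S1_at) had 8.84, 8.12 and 8.30 in pollen and 4.08 and 2.51 in sporophytic tissues, a difference of 5.12. Those of the second cluster differed by 4.48 and 4.10. Each of the 2 clusters also holds a probe set with the soybean symbol WRKY59, which lies outside the 94, is in the study's list, and differed by 4.69 and 4.39.

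BPC2, a GAGA-binding protein, had 12.34, 12.29 and 12.30 in pollen and 8.53 and 8.64 in sporophytic tissues, a difference of 3.72. TLP7, a Tubby-like protein, had 13.16, 13.12 and 13.09 in pollen and 8.76 and 9.76 in sporophytic tissues, a difference of 3.86. Both were above 100 on all arrays. CXC domain proteins, of the family of cysteine-rich DNA-binding proteins, differed by 5.15 and 3.97 with no sporophytic array at 100. S1FA differed by 2.38 and 2.09 with all arrays above 100. The rest were a bZIP factor, which differed by 3.83 with no sporophytic array at 100, a myb family factor, which differed by 3.56 with both above it, and TKI1, which differed by 2.22 below 100 on every array.

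PCL1, also called LUX, is a MYB-type gene of the evening complex of the Arabidopsis circadian clock. Its probe set had 6.67, 6.94 and 7.11 in pollen and 1.34 and 3.80 in sporophytic tissues, a difference of 4.34. The sporophytic replicates were 2.46 apart, and pollen was just above the signal of 100. Soybean probe sets named LUXC in the same cluster had 11.49, 11.58 and 11.71 in pollen and 7.29 and 10.83 in sporophytic tissues, and 5.48, 7.38 and 7.09 in pollen and 2.56 and 5.41 in sporophytic tissues. Their differences of 2.53 and 2.67 did not pass (limma, adjusted p 0.15 and 0.13), and sporophytic replicate 2 was higher than replicate 1 in each. The clock gene LHY, looked up after its values were seen, went the other way between the sporophytic replicates, with 9.32 and 5.89 for one probe set and 8.82 and 3.04 for the other. What sets the sporophytic replicates apart was not tested.

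Small differences closed the group. The gt-2-related protein, of the trihelix family, had 2.82, 2.82 and 2.81 in pollen and 2.37 and 2.38 in sporophytic tissues, and its difference of 0.44 was the smallest of the 94. L1L, a relative of the embryo regulator LEC1, had 2.56, 2.56 and 2.55 in pollen and 1.97 and 1.97 in sporophytic tissues, a difference of 0.59. These differences rest on values far below 100 on every array. A partner of each outside the list had a difference of 0.22 and 0.13 that did not pass (limma, adjusted p 0.20 and 0.09).

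**Figure D4:**
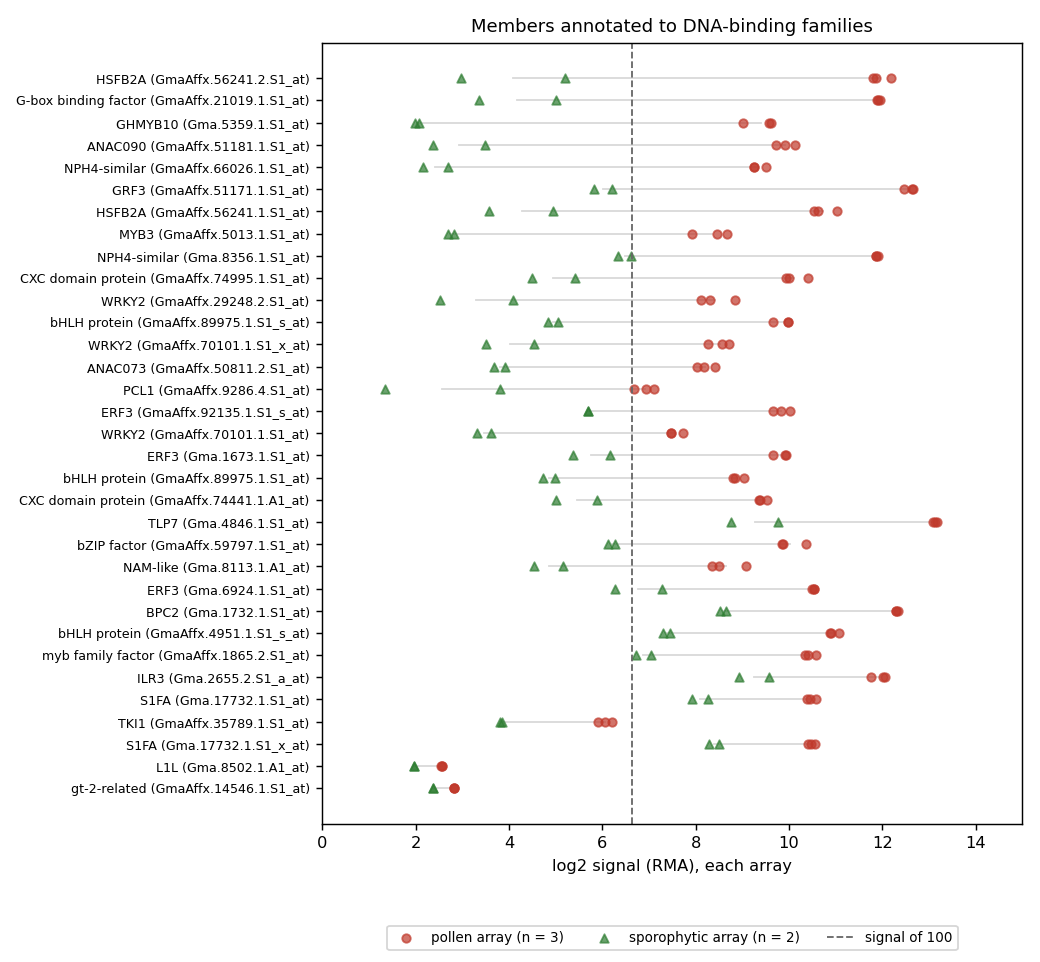
Log2 signal (RMA, horizontal axis) of the 33 probe sets annotated to DNA-binding families on each of 3 pollen arrays (circles) and 2 sporophytic arrays (triangles), in order of the difference between the group means. The dashed line is a signal of 100. Differences spanned 7.86 for HSFB2A to 0.44 for the gt-2-related protein, and the 2 sporophytic arrays were at least 2-fold apart in 8 rows.

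Among proteins with no family named, 1 had a difference of 8.92. The probe set annotated only as a DNA-binding protein (Gma.423.1.S1_at, matching At2g45820) had 14.67, 14.70 and 14.74 in pollen and 5.58 and 5.99 in sporophytic tissues, which is 483-fold. That annotation is the study's and may be out of date, so whether the protein binds DNA is uncertain. Without sporophytic replicate 1 its difference was 8.71, below the 8.97 of HSFB2A, so their order is not settled. The other 8 differed by 2.19 to 5.01, and the median of the 9 was 3.22. The transcription factor next to it (Gma.15753.1.S1_at) had 9.94, 10.09 and 10.24 in pollen and 4.90 and 5.26 in sporophytic tissues. A signal of 100 was reached by 7 of the 9 on every pollen array, and 4 of these 7 stayed below it on both sporophytic arrays.

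Under other annotations stood 14 probe sets whose names do not point to transcription directly, with a median of 4.42 and a range of 2.88 to 6.86. AGD6 belongs to a family of GTPase-activating proteins for ARF, a regulator of vesicle traffic, and had 4 probe sets. Of these, Gma.13143.1.S1_at had 12.48, 12.79 and 12.74 in pollen and 6.27 and 6.63 in sporophytic tissues, a difference of 6.22 or 74.7-fold. The other AGD6 probe sets differed by 5.26, 4.46 and 3.99. A signal of 100 was reached on no sporophytic array by Gma.13143.1.S1_at, on 1 by the probe set with 5.26, and on both by the others.

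A protein with ubiquitin-interacting and LIM domains differed by 6.86 and 6.15. ZFWD2, annotated by the study as a WD-repeat protein, had 10.08, 10.54 and 10.53 in pollen and 3.47 and 4.14 in sporophytic tissues, a difference of 6.58. Zinc finger proteins were left out by the words of the annotation, so ZFWD2 stayed in although its name may point to a zinc finger. BPM2, an adaptor of cullin ubiquitin ligases in Arabidopsis, had 8.88, 8.42 and 8.60 in pollen and 6.10 and 5.39 in sporophytic tissues, a difference of 2.88. NUZ, which in Arabidopsis is an RNase Z of tRNA processing, differed by 3.68. Of the 6 probe sets with no annotation, 5 differed by 2.74 to 5.07. The remaining one had 3.20, 3.30 and 3.33 in pollen and 2.55 and 2.62 in sporophytic tissues, a difference of 0.69, while a probe set of its own cluster number differed by 5.07.

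Spread within the groups entered the p-value by which the study chose its list, so it is given as a description. The median SD of the 94 was 0.15 over the pollen arrays and 0.25 over the sporophytic arrays, against 0.08 and 0.27 for all probe sets. Of all probe sets, 54.8% stayed below 100 on every array, against 7 of the 94, and 25.9% had tied values between arrays. Nothing is read from the 0.08 for that reason. Sporophytic replicate 2 was above replicate 1 for 70 of the 94 (74.5%), as for 64.2% of all probe sets. The pair was at least 2-fold apart for 11 of them (11.7%), and for 20.0% of all probe sets, from which nothing is read since the study's test disfavours such probe sets. Replicate 1 was the higher in 5 of the 11, namely both HSFB2A probe sets, a WRKY2, ANAC090 and an ERF3 probe set. Replicate 2 was the higher in 6, which included PCL1, the G-box binding factor, CHR19 and the PWWP domain protein. For those 11 the sporophytic level is known only within that spread. The differences moved accordingly. Without sporophytic replicate 1 or 2, PCL1 had 3.11 or 5.57, the first WRKY2 probe set 5.91 or 4.34 and the PWWP domain protein 1.90 or 3.15.

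Genes of soybean with several probe sets allow a look at signals the study left out of its list. The 94 come from 84 clusters, read from the number in the probe set name. In 20 of these there were 29 other probe sets, 3 of them in the study's list. The 26 that were not in the list, from 18 clusters, had been passed over on these same arrays. In limma's test 16 of the 26 were higher in pollen (61.5%, where 18.9% of all probe sets were called higher), 2 were lower and 8 did not pass, with a median difference of 1.72. They came from the same contrast as the 94, so this count is a description.

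Partners of CHR19, HAC1 and the paired amphipathic helix protein went with them. The CHR19 partner had 8.52, 8.68 and 8.68 in pollen and 5.90 and 6.54 in sporophytic tissues, a difference of 2.41 (limma, adjusted p 0.0022), against 4.43 for the listed CHR19 probe set. The HAC1 partner differed by 1.74 (limma, adjusted p 0.0053) and that of the paired amphipathic helix protein by 2.66 (limma, adjusted p 0.00085). For TFIIA the partner differed by 0.74, at 3.31, 3.41 and 3.52 in pollen and 2.65 and 2.69 in sporophytic tissues, all far below 100.

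Other partners went apart from the listed probe set. In the ILR3 cluster, the partner (Gma.2655.3.S1_at, symbol LOC100777596) had 2.89, 2.92 and 2.87 in pollen and 7.78 and 9.11 in sporophytic tissues, a difference of -5.55 (limma, adjusted p 0.0014). The listed ILR3 probe set had 11.76, 12.02 and 12.05 in pollen and 8.93 and 9.58 in sporophytic tissues. In the cluster of a transcription factor of no named family (Gma.12465), 1 partner had a difference of -1.57 (limma, adjusted p 0.00054) and another of 0.91 (limma, adjusted p 0.018), beside 2.89 for the listed one. Whether the probe sets of a cluster measure the same transcript was not tested.

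**Figure D5:**
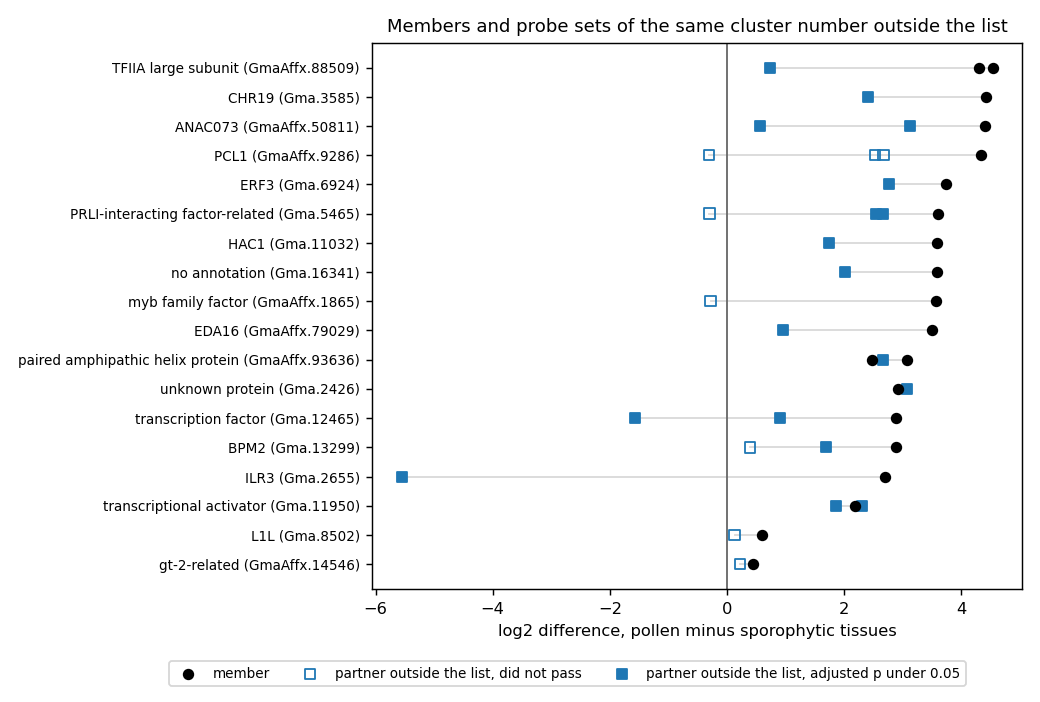
Log2 difference, pollen minus sporophytic tissues (horizontal axis), of listed probe sets (black circles) and of 26 probe sets with the same cluster number outside the list (squares, filled where limma's adjusted p was under 0.05), for 18 clusters. Partners ran from -5.55 in the ILR3 cluster to 3.12 in the ANAC073 cluster.

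Families of the same roles were then looked up by soybean gene symbol, with lists chosen from the roles of the 94. Of 16 lists, 9 found no probe set by symbol, and the other 7 held 22 probe sets outside the 94. In limma's test, 3 of the 22 were higher in pollen (18.9% of all probe sets were), 11 were lower (34.5% of all were) and 8 did not pass, with a median difference of -0.99. Symbols cover only part of the array, so these are the named genes and not the families as a whole.

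General factors were the list with higher calls. TFIIB1, which bridges the polymerase and the TATA-binding protein, was higher for 2 of 3 probe sets. Gma.5981.1.S1_s_at had 11.08, 11.38 and 11.29 in pollen and 8.64 and 8.88 in sporophytic tissues, a difference of 2.49 (limma, adjusted p 0.00051). The other higher TFIIB1 probe set, GmaAffx.92911.1.S1_at, differed by 2.26 (limma, adjusted p 0.0056) and stayed below 100 on every array. TBP1, the TATA-binding protein itself, was higher for 1 of 5 probe sets, Gma.4412.1.S1_s_at, with 11.38, 11.32 and 11.35 in pollen and 9.56 and 9.90 in sporophytic tissues, a difference of 1.62 (limma, adjusted p 0.0012). The other 4 did not pass and had differences of -0.48 to 0.45. That TBP1 probe set was above 100 on all arrays. Both it and Gma.5981.1.S1_s_at end in a suffix that marks shared probes. All 7 listed TFIIA probe sets had larger differences than any TBP1 or TFIIB1 probe set. The TFIIA probe sets were chosen as higher in pollen and the others were not, so nothing is read from this order. The TFIIA partner outside the list, far below 100, had a difference of 0.74, which is under the 2.49 and 1.62 given here.

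Chromatin proteins and DNA-binding factors named by symbol included many lower calls. All 5 probe sets of the PHD finger genes PHD4 and PHD6 were lower, with a median of -3.31, where the PHD finger proteins of the 94, chosen as higher, differed by 4.06 and 2.76. HDT1, a plant-type histone deacetylase, had 3.36, 5.71 and 4.04 in pollen and 8.13 and 8.03 in sporophytic tissues, a difference of -3.71 (limma, adjusted p 0.023). The trihelix factors GT-2A and GT-2B were lower for 1 of 2 and 1 of 1 probe sets, with differences of -3.57 and -3.62 (limma, adjusted p 0.0018 and 0.0088). CPP1, of the CXC domain family, had 2.51, 2.59 and 2.63 in pollen and 6.69 and 7.10 in sporophytic tissues, a difference of -4.31 (limma, adjusted p 0.00018), where the listed CXC domain proteins differed by 5.15 and 3.97. The remaining GT-2A probe set did not pass, with a difference of 0.40 (limma, adjusted p 0.55). These lower calls depend in part on how the arrays are scaled, since 8 of the 22 were higher and 8 lower after quantile normalization of the soybean probe sets, and 9 and 9 with equal array medians.

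Core histones and histone H1, the substrate of many of the chromatin proteins above, were taken from the annotations of the study's higher and lower lists. Only 1992 probe sets of the lower list were read, so the tally is partial. It came to 2 probe sets higher and 46 lower in limma's test, where 18.9% and 34.5% of all probe sets were called. The study chose both lists on these arrays, and the direction is fixed by that choice. A histone H2A (Gma.13144.1.S1_at) had 12.72, 12.47 and 12.51 in pollen and 8.63 and 8.16 in sporophytic tissues, a difference of 4.17. A histone H3 (Gma.11213.2.S1_at) had 11.86, 11.66 and 11.72 in pollen and 9.19 and 8.69 in sporophytic tissues, a difference of 2.81. Both were above 100 on all 5 arrays. Over the 48 probe sets of the tally the median difference was -3.69. Of 2 probe sets with the soybean symbol H4, 1 was lower with a difference of -3.06 (limma, adjusted p 8.6e-05). The other did not pass, with a difference of 0.63 (limma, adjusted p 0.13).

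A few more soybean symbols were looked up after their values were seen, and their differences are a description. FVE, a WD-repeat partner of histone deacetylase complexes in Arabidopsis, had 4.22, 4.73 and 4.69 in pollen and 9.11 and 8.88 in sporophytic tissues for one probe set, a difference of -4.45, and a difference of -3.42 for the other. Of the ICE genes, named after a helix-loop-helix factor of the cold response, 5 of 6 probe sets were lower in limma's test and 1 did not pass. Lower calls were made for 34.5% of all probe sets. Of these 6, only Gma.16377.1.A1_at, which was lower, reached a signal of 100 on any array. GBF2, a G-box binding factor, was higher for 1 of 2 probe sets with a difference of 2.02. SOYGBFA, another by its symbol, had a difference of -0.81, with every array below 100. The probe set named LCL3 did not pass, with a difference of 1.73.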

How the data were processed

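The authors hybridised total RNA to the Affymetrix soybean array, summarised probes by RMA in AffylmGUI with background correction and quantile normalization, and deposited log2 signals. Versions of these programs are not given in the sources used here. All 5 arrays and 37593 soybean probe sets were used as deposited, with no filter on dim ones. Depth is signal over background on an array, and the number of arrays (3 and 2) limits the precision.

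Differences between the groups were tested by limma (version 3.58.1, R 4.3.3; lmFit and eBayes, two-sided, 0.854 prior and 3 residual degrees of freedom, Benjamini-Hochberg adjustment over all probe sets, threshold 0.05), in steps tested on simulated data. The p-values weigh each difference against the spread between biological replicates. For dim probe sets with nearly equal values on the arrays of a group, such as L1L, that spread need not be biological variation. Same-numbered arrays are not said to pair, and their deviations correlated at 0.024 and 0.016, so no block was used. Probe sets of the list were identified from the study's annotations, whose fold changes and p-values were not used. The members, role groups and gene lists were chosen with earlier results of these data known. Members described follow a rule by role group, favouring the largest and smallest differences, high pollen signal, complexes with several probe sets, and polycomb and trithorax proteins. Family lists were searched by gene symbol only, and 11 probe sets with symbols of another role were left out. No genomic or protein sequence was used, and the promoter motif search planned was not run. Alternatives covered scaling, thresholds, dim and shared probe sets, array weights, a replicate block and each array left out.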

Additional observations from a re-analysis of the deposited data

How the results depend on the processing

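All differences of the 94 probe sets kept their sign under the other scalings, with a replicate block and with each array left out. The 94 were chosen as higher in pollen, and every pollen array lay above both sporophytic arrays. Leaving out an array could thus not reverse a sign, and both other scalings raised pollen against sporophytic tissues. Nothing is read from the kept signs. With quantile normalization of the soybean probe sets, 13917 probe sets were higher in pollen, against 7104 with the deposited values, 8 of the 22 family probe sets were higher, and the median of the 94 was 4.86. With equal array medians the values were 20047, 9 and 5.13. Lower calls made up 41.7% and 32.9% of all calls under these scalings, and 64.6% with the deposited values. All 94 were called under both, from which nothing is read for the same reason. Array weights, which gave the sporophytic arrays 0.0961 each, left 2182 higher and 8350 lower probe sets, 83 of the 94 called and 7 family probe sets lower. A replicate block, for numbers that are not known to pair samples, left 3511 higher, 8634 lower, 87 of the 94 and 7 family probe sets lower. Among those lost were L1L, PCL1, the gt-2-related protein and the PWWP domain protein. With only bright probe sets tested, fewer by construction, 3682 were higher and 8123 lower. At an adjusted p under 0.01, 4306 were higher. Without probe sets with shared probes, 1 family probe set was higher. The causes of the other changes were not tested. Leaving out each array in turn gave 4824 to 10172 higher and 10656 to 16633 lower calls, 92 to 94 of the 94, a median of 3.84 to 4.15, and 3 to 5 family probe sets higher, 5 without sporophytic replicate 2. PCL1 lost its call without each pollen replicate, and the PWWP domain protein without pollen replicate 2. The count of 51 was 34 at a signal of 50 and 62 at 200. A setting without unannotated probe sets was chosen after seeing the data. With 2 sporophytic arrays, signal over background limits what can be said of probe sets below 100.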
